A study of Mus musculus with 2 samples.

Results

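Wls, Oasl1, Arhgap25, Adgrf2 and Lars2 are the 5 protein-coding genes with the highest enrichment of H4K12la reads at a gene end in both libraries of a CUT&Tag study. H4K12la is lactylated lysine 12 of histone H4, and CUT&Tag sends a transposase to antibody-bound chromatin so that nearby DNA is tagged and sequenced. The material was Neuro2a, a mouse neuroblastoma line, with 1 library from cells given NaCl (Ctrl) and 1 from cells given 25 mM lactate (Lactate). The NaCl dose, the length of treatment and any library made without the specific antibody were not stated in the labels used here. The study's design text asks whether H4K12la regulates transcription. With 1 library per group there is no replicate check, no test between groups was run, and intervals cover counting error only.

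The 5 genes were chosen by the deposited fold enrichment of their best peak within 1 kb of either annotated gene end, out of 21887 protein-coding genes. Such a peak was called for 32% of all these genes in the control library and 44.8% in the lactate library, and for 28.6% (6266 genes) in both. The choice means that high fold in both libraries is no finding. The lowest control fold among the 5 was 9.94 at Lars2, and the next gene below was Ms4a5 at 9.40. The lowest lactate fold was 9.41 at Adgrf2, and the next below was Cacna2d2 at 9.32. Membership thus turned on a difference of under 1 unit of fold at either edge. The control list held 46592 peaks and the lactate list 39768, and the background recovered from them put the lactate library 3.43% deeper. As a check of the labelled cell type, 3 of 13 neuroblastoma and neuron markers had a gene-end peak in Ctrl and 5 in Lactate. These are lower shares than the 32% and 44.8% of all protein-coding genes. On so few genes and without a test, the counts neither bear out the label nor speak against it. Among 8 markers of other cell types, Mbp in the lactate library was the single call. Of the 13 neuroblastoma and neuron markers, Isl1 and Map2 were called in both libraries, and 7, Th and Dbh among them, in neither. A peak of this mark is not a measure of expression.

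Lactylation is an acyl mark that cells place on lysines with lactate as the source of the acyl group, and it is mostly described at promoters and other active chromatin. Each peak below is given by its summit pileup, the number of extended reads that overlap the highest position, and by its local background (lambda), the pileup that the reads of the surrounding region predict. The fold is (pileup + 1)/(lambda + 1). RefSeq promoters (assembly GRCm38.p6, which corresponds to mm10) matched 4 of the 5 genes and gave their strand. Adgrf2 had no entry. With strand known, the strong peak lay upstream of the 5′ end at Oasl1, past the 3′ end at Wls and Arhgap25, and inside the gene near its 3′ end at Lars2. None of these 4 peaks reached a promoter window of its own gene, defined as 250 bases before to 50 after the annotated start.

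The promoter windows of Wls, Oasl1 and Lars2 are shown because a peak lay on or within 1 kb of each of these starts in at least 1 library. They are written 5′ to 3′ with every CG dinucleotide in capitals, from RefSeq (GRCm38.p6), all on the plus strand. Wls is chr3:159839400-159839699, Oasl1 is chr5:114922990-114923289 and Lars2 is chr9:123366677-123366976.
Wls: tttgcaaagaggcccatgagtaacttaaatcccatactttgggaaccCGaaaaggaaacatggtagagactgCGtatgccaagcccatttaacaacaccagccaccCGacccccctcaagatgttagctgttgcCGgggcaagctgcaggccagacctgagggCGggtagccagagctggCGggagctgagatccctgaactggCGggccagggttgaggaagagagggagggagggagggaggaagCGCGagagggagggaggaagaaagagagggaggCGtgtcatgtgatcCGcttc
Oasl1: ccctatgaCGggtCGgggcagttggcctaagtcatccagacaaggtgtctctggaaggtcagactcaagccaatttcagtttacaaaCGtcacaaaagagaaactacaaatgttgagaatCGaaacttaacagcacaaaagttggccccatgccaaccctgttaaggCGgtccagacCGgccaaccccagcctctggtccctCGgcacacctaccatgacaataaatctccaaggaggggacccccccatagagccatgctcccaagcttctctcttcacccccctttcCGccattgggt
Lars2: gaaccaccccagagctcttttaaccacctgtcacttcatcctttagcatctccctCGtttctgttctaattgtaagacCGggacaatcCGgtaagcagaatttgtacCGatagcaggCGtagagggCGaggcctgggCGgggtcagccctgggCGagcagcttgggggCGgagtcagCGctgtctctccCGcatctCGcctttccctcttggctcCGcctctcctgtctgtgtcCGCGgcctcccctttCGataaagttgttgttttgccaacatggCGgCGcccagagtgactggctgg

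Lars2 had 18 CG dinucleotides in this window, a number that 29.7% of all 32851 promoter windows reach. Wls had 11, which 41.4% reach, and Oasl1 had 8, which 48.65% reach. The GC box letters GGGCGG, searched on both strands, occurred at 2 places in Lars2, at 1 in Wls and at 0 in Oasl1, and 35.7% of windows hold them. The CCAAT letters occurred at 1 place on each strand of Oasl1 and at 0 places in Wls and Lars2, against 37.4% of windows. The TATA box letters TATAAA occurred in none of these 3 windows and occur in 13.6% of all. The core of the interferon-stimulated response element was found at 1 place in Wls and at 0 in Oasl1 and Lars2, against 3.44% of windows. These are matches of letters in 1 window and say nothing of binding.

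**Figure D1:**
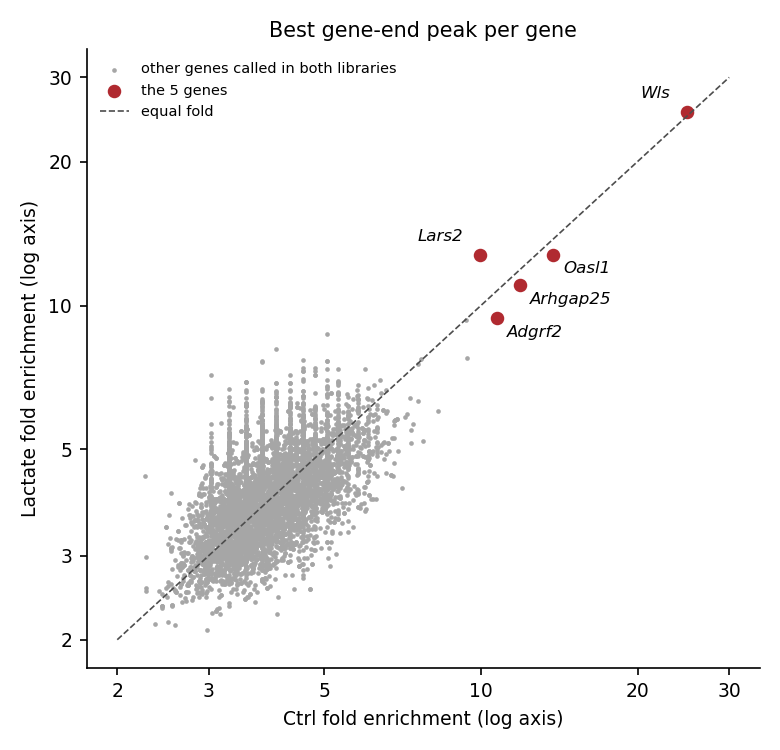
Deposited fold enrichment of the best gene-end peak in the control (x axis, log) and lactate library (y axis, log) for the 6266 genes called in both, with the 5 genes in red. The 5 lie beyond 9.4 on both axes and Wls lies near 25, while the median gene is at 3.83 in Ctrl and 3.98 in Lactate.

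Wls encodes the carrier protein that takes lipid-modified Wnt ligands from the secretory pathway to the cell surface. The gene runs on the plus strand of chromosome 3 from 159839650 to 159938666, and the strong control peak lay at 159939274 to 159939816 (mm10), 608 bp past the 3′ end. The control library had 146 summit reads (95% interval 123 to 172) over a lambda of 4.90 reads. The lactate library had 150 (127 to 176) over 4.96. The levels differed by 4 reads and their intervals overlapped. Both edges of the peak agreed between libraries to within 5 bp, and the summits lay 6 bp apart. Widths were 543 bp and 547 bp, with the summit 1 bp and 4 bp from the middle. No annotated gene of any kind overlapped the peak, and the nearest after Wls itself was the small nuclear RNA gene Gm23941, 22.9 kb away inside Wls.

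The start of Wls carried separate, weak peaks. In the control a peak began 810 bp downstream of the start, with 13 summit reads (6.92 to 22.2), and in the lactate library one began 797 bp downstream, with 18 reads (10.7 to 28.4). Their folds were 3.40 and 4.55, against 24.9 and 25.3 at the peak past the 3′ end. The strongest enrichment credited to Wls thus lay at the far end of a gene of 99017 bp.

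Adgrf2 encodes an adhesion G protein-coupled receptor, a family of membrane receptors with long extracellular regions. Its peak crossed the higher-coordinate end of the gene (chromosome 17, 42694028 to 42743753), at 42743207 to 42744467 in Ctrl and 42743254 to 42744442 in Lactate. The control library had 82 summit reads (65.2 to 102) over a lambda of 6.74, and the lactate library had 75 (59.0 to 94.0) over 7.08. The lactate value was the lower and the intervals overlapped. This was the widest of the 5 peaks, at 1261 bp and 1189 bp. Its summit lay 358 bp from the middle in Ctrl and 281 bp in Lactate, outside the gene by 442 bp and 376 bp. Cd2ap, which encodes an adaptor protein of the actin cytoskeleton, lies 4.42 kb beyond the control peak.

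Arhgap25 encodes a GTPase-activating protein for Rac, best known in blood cells. It lies on the minus strand of chromosome 6 from 87458544 to 87533261, and its peak lay past the 3′ end, at 87457082 to 87458107 in Ctrl and 87457232 to 87458081 in Lactate. The control library had 104 summit reads (85.0 to 126) over a lambda of 7.84, and the lactate library had 99 (80.5 to 121) over 8.08. The values differed by 5 reads and the intervals overlapped. Widths were 1026 bp and 850 bp, and the summits lay 88 bp apart, the longest shift of the 5. Its promoter windows at 2 annotated starts carried no peak, and the nearest peak to either start was 38220 bp away in Ctrl and 11343 bp away in Lactate.

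Oasl1 encodes a protein related to 2′-5′-oligoadenylate synthetases that interferon induces and that restrains translation of the regulator Irf7 in mouse cells. It lies on the plus strand of chromosome 5 from 114923143 to 114937911. The peak lay upstream, at 114922321 to 114922669 in Ctrl and 114922309 to 114922705 in Lactate. It ended 571 bp and 535 bp before the start in the promoter table, and in Lactate 48 bp separated it from the long noncoding RNA gene Gm13822, on the other strand. The control library had 64 summit reads (49.3 to 81.7) over a lambda of 3.72, and the lactate library had 81 (64.3 to 101) over 5.42. The lactate summit was higher by 17 reads and the intervals overlapped. The local background was higher too, and the fold was lower, 13.8 in Ctrl and 12.8 in Lactate. The summits lay 1 bp apart, the closest of the 5.

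Lars2 encodes the enzyme that charges mitochondrial tRNA with leucine. It lies on the plus strand of chromosome 9 from 123366927 to 123462675, and the peak lay inside the gene, with its summit 687 bp (control) and 683 bp (lactate) before the 3′ end. Both peaks began at 123461819 and ended at 123462182 in Ctrl and 123462227 in Lactate. The gene table used here gives no exons, so the peak was not assigned to an exon or intron. The control library had 66 summit reads (51.0 to 84.0) over a lambda of 5.74, and the lactate library had 94 (76.0 to 115) over 6.46. The lactate value was the higher by 28 reads, the largest gap of the 5, and the intervals still overlapped. Fold rose with it, from 9.94 to 12.7.

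Of the 4 members with a promoter window, Lars2 alone had a peak on it. Adgrf2 had no window, so whether its peak lay on a promoter is not known. In the lactate library a peak of 543 bp at 123366667 to 123367209 covered the whole 300-base window printed above, with 20 summit reads (12.2 to 30.9), a fold of 4.84 and a −log10 q of 6.54. The control list had no peak there, and its nearest peak to the start was 11060 bp away. Among 17492 protein-coding genes with a promoter window, 25.8% had a peak on it in the control library, 40.4% in the lactate library and 16.5% in Lactate alone. The lactate-only call at 1 of 4 members stands beside that last share. No listed peak had a pileup under 11 reads, so a missing peak does not show an absence of reads.

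**Figure D2:**
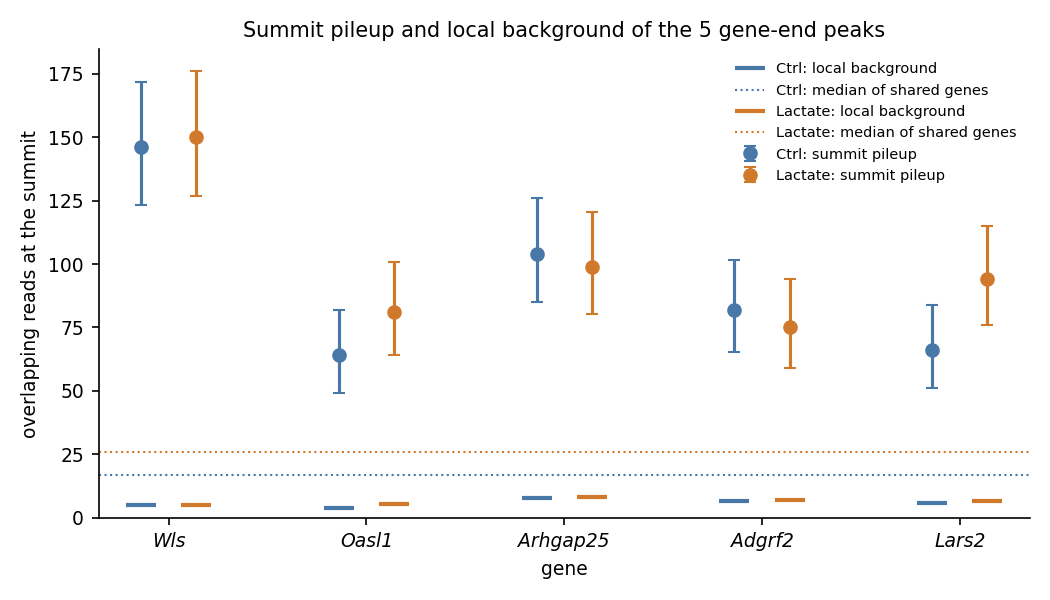
Summit pileup (circles, overlapping reads, with exact Poisson 95% intervals for counting error) and local background (short bars) at the 5 genes in the control (blue) and lactate (orange) libraries, with dotted lines at the medians of the 6266 genes called in both. Summits run from 64 to 150 reads against medians of 17 and 26, the local backgrounds stay under 9 reads, and the intervals of the libraries overlap at every gene shown.

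The lactate to control ratio of summit reads was 1.03 at Wls (0.813 to 1.30), 0.915 at Adgrf2 (0.660 to 1.27) and 0.952 at Arhgap25 (0.716 to 1.27). It was 1.27 at Oasl1 (0.901 to 1.79) and 1.42 at Lars2 (1.03 to 1.98). These are exact conditional intervals, and that of Lars2 alone left out 1. The median ratio over the 6266 genes called in both was 1.55, so all 5 members stood below the middle of these genes. The share of genes with a lower ratio was 2.78% at Adgrf2, 3.78% at Arhgap25, 5.55% at Wls, 19.5% at Oasl1 and 36.3% at Lars2. The median of the members was 1.03. The Poisson intervals of the libraries separated at 0 of the 5 genes, beside 2.31% of all shared genes with the lactate interval wholly higher and 0.0319% with it wholly lower. The ratio did not enter the choice of the genes directly, but the choice asked for high fold in both lists, and no test was made. Taken on the deposited fold, the ratio of all shared genes had a median of 1.012 and 3 of the 5 members were below it.

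Low ratios were not limited to these genes. Peak pairs that overlapped between the libraries were binned by the lower of their folds. Gene-end pairs had a median ratio of 1.57 where that fold was 3 to 4 (2822 pairs), 1.5 at 5 to 6 (270 pairs) and 1.21 at 6 to 9 (20 pairs). Pairs away from gene ends had medians of 1.13, 1 and 1 in the same bins, from 6634, 407 and 253 pairs. At a fold of 9 or more, 138 pairs away from gene ends had a median ratio of 1.04, with 5th and 95th percentiles of 0.718 and 1.39. Adgrf2, Arhgap25, Wls and Oasl1 were inside that range and Lars2 was just above it.

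**Figure D3:**
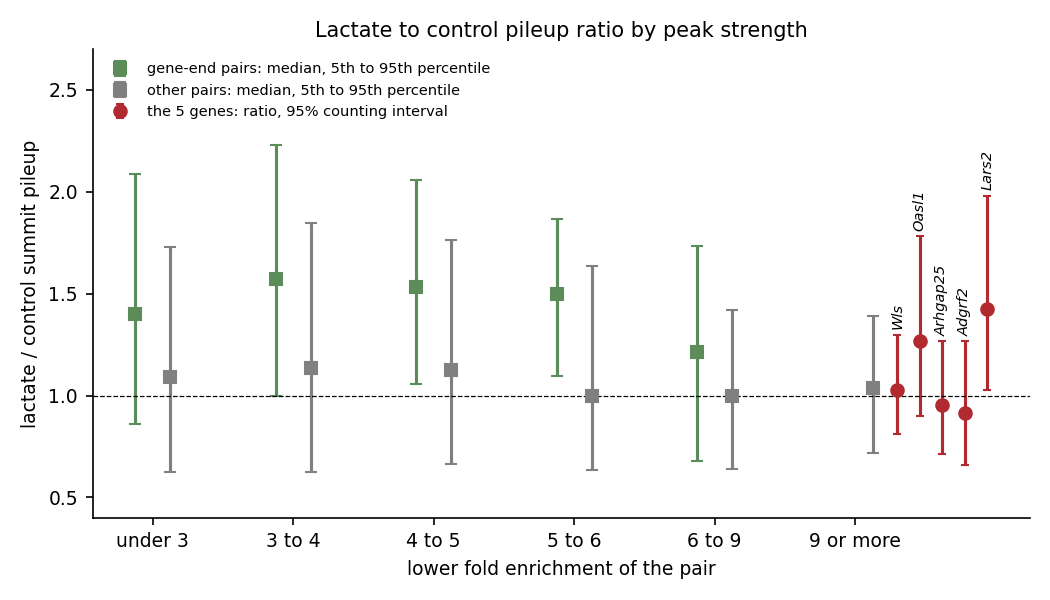
Ratio of lactate to control summit pileup (y axis) for overlapping peak pairs, binned by the lower fold of the pair (x axis), as medians with 5th to 95th percentiles for gene-end pairs (green) and other pairs (grey), with the 5 genes in red and their 95% counting intervals. Bins under 20 pairs are not drawn. The gene-end median is 1.57 at a fold of 3 to 4 and 1.21 at 6 to 9, and 4 of the 5 genes sit within the range of the strongest pairs away from gene ends.

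The reads around the summits were also compared. Local backgrounds in both lists came in steps of 0.02, the value of a single read of 200 bp length spread across 10 kb. Both lengths are assumed, since the step gives only their ratio. On that assumption lambda was converted to a count of reads in the 10 kb around the summit. For Wls this gave 245 reads in Ctrl and 248 in Lactate, so that 59.6% and 60.5% of them overlapped the summit. Without the summit reads 99 and 98 were left, which is 66.9% and 64.1% of what the genome-wide background predicts for 10 kb. The surroundings of the Wls peak were thus poorer in reads than the genome at large, in both libraries. Oasl1 had 82.5% in Ctrl and 124% in Lactate, and the other 3 genes had 149% or more. The reads left include those in the rest of a peak that do not overlap its summit. At the broad peaks of Adgrf2 and Arhgap25 these values thus do not describe the surroundings alone.

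At the other 4 genes, summit reads made up 34.4% and 29.9% of the 10 kb reads at Oasl1 (control, lactate), 26.5% and 24.5% at Arhgap25, 24.3% and 21.2% at Adgrf2, and 23.0% and 29.1% at Lars2. The median was 9.09% over 4079 shared genes in Ctrl and 8.98% over 6032 in Lactate, counting genes whose local background stood above the genome-wide one. This share rises with fold, which chose the members, and is a description. Reads left outside the summit went from 122 to 190 at Oasl1, a lactate to control ratio of 1.56. They went from 288 to 305 at Arhgap25, from 255 to 279 at Adgrf2 and from 221 to 229 at Lars2, ratios of 1.06, 1.09 and 1.04, and at Wls the ratio was 0.990. Over 4023 shared genes the median of this ratio was 1.72, with 5th and 95th percentiles of 1.23 and 2.18. Oasl1 was inside this range, and the other 4 members were below it.

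**Figure D4:**
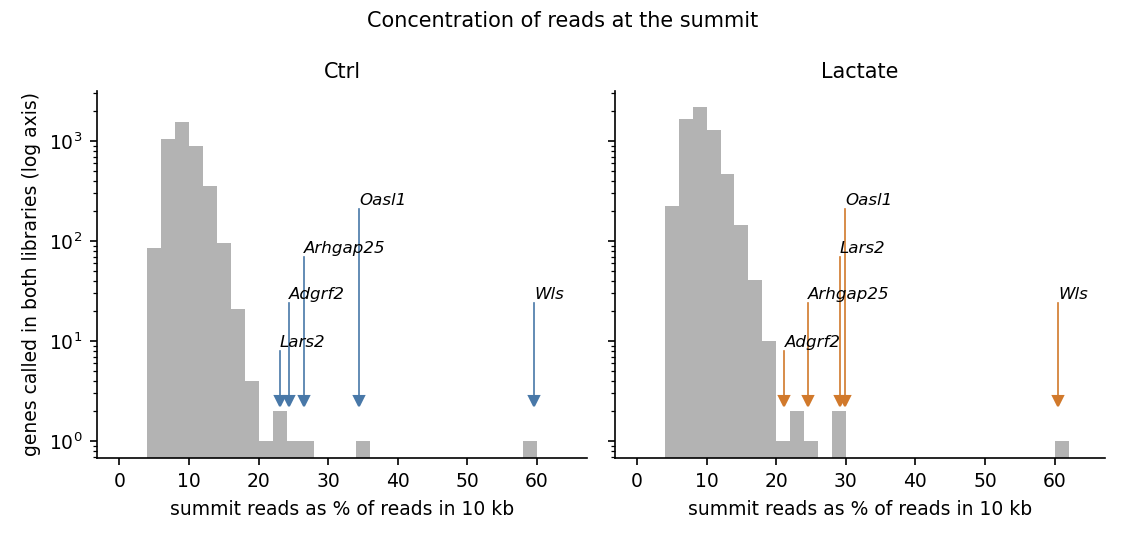
Summit reads as a percentage of the reads in the surrounding 10 kb (x axis) for genes called in both libraries with a local background above the genome-wide one (y axis, number of genes, log scale, bins of 2 percentage points, the 5 genes included), in the control (left) and lactate (right) library. Wls stands near 60% in both, the other members lie between 21.2% and 34.4%, and the medians are 9.09% and 8.98%.

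Peaks of the control and lactate lists sat at nearly the same place. Summits were within 6 bp of each other at Wls, Oasl1 and Lars2, a distance met by 6.69% of shared genes, and 88 bp and 66 bp apart at the broad peaks of Arhgap25 and Adgrf2. The median distance over all shared genes was 108 bp. It was 6.5 bp in the 138 pairs away from gene ends at a fold of 9 or more, and 18 bp in the 253 such pairs at 6 to 9, so close summits were common to strong peaks. Intervals overlapped at all 5 genes, as they did at 90.3% of shared genes, and by at least 82.8% of either interval at each of the 5. Lactate peaks were the wider at 84.3% of shared genes and at 3 of the 5 members. Median widths of all shared genes were 316 bp in Ctrl and 565 bp in Lactate, and those of the members were 543 bp and 547 bp.

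Few other peaks lay nearby. Within 50 kb of the strong peak, Wls and Adgrf2 had 0 neighbouring peaks in either library, a state found at 4.34% of shared genes. At Adgrf2 this rests on the limit, since the nearest peaks lay 52.1 kb away in Ctrl and 50.8 kb away in Lactate. At Wls the nearest lay 54.3 kb away in Ctrl and 98.6 kb away in Lactate. Lars2 had 1 neighbour in Ctrl and 2 in Lactate, all inside Limd1, an adaptor protein gene. One in each library lay at nearly the same distance from the Lars2 peak, 30028 bp in Ctrl with 14 reads (7.65 to 23.5) and 29990 bp in Lactate with 22 reads (13.8 to 33.3). Oasl1 had 3 control and 2 lactate neighbours, all between 28.9 kb and 30.9 kb away between its relative Oasl2 and 4930519G04Rik. Their folds ran from 3.19 to 4.48. Arhgap25 had 2 control neighbours and 1 lactate neighbour, all at 48.9 kb or more, on the far side of Bmp10, the gene of a bone morphogenetic protein of the heart. The farther control neighbour, at 49.96 kb, had a lactate partner at 50.10 kb, just past the limit. The medians over shared genes were 2 neighbours in Ctrl and 3 in Lactate. None of the 5 had another peak within 5 kb in either library, which held for 78.8% of shared genes in Ctrl and 70.2% in Lactate.

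**Figure D5:**
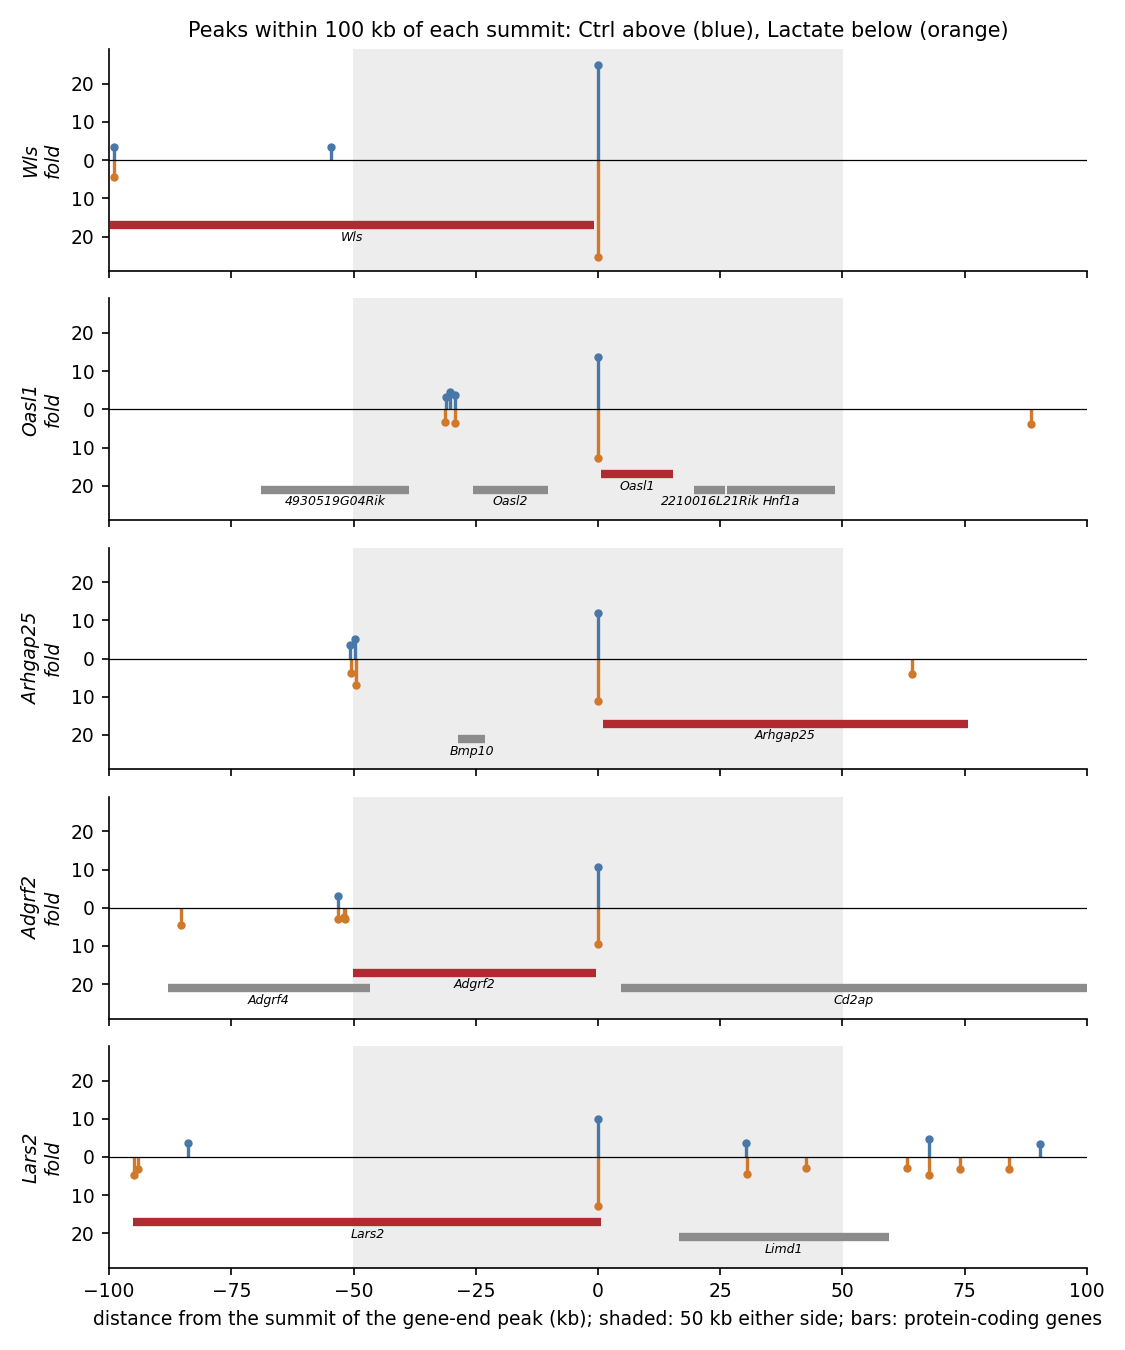
Peaks within 100 kb of the summit at each of the 5 genes, by distance from that summit (x axis, kb) and deposited fold enrichment (y axis, control upward in blue, lactate downward in orange), with the gene itself as a red bar and protein-coding genes that come within 50 kb in grey, clipped at the edge. Every neighbour has a fold under 7, and the shaded 50 kb on either side hold none at Wls and Adgrf2.

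Set among all peaks of each list, Wls ranked 11th by fold in Ctrl and 9th in Lactate. Oasl1 ranked 67 and 72, Arhgap25 94 and 108, Adgrf2 115 and 150, and Lars2 135 and 73. The control list held 135 peaks with a fold at least that of its lowest member, and the lactate list held 150. The number at gene ends among these, 5 in each list, is set by the choice of the genes. All 135 and all 150 overlapped a peak of the other library, whereas 37.7% and 43.4% of all peaks did. No peak within 50 kb was found for 45.9% and 41.3% of these strong peaks, and for 11.6% and 11.5% of all peaks. No repeat annotation, genome sequence or antibody-free library was used here, and the part of repeated sequence and read placement in these 5 peaks was not tested.

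The 5 genes next below by the lower fold were Cacna2d2, Ms4a5, Tmem17, Vmn2r29 and Gm21814. Cacna2d2, an auxiliary calcium channel subunit gene, had 36 and 43 summit reads (control, lactate), and Ms4a5 had 40 and 32. Tmem17, a ciliary protein gene, had 31 and 51, Vmn2r29, a vomeronasal receptor gene, 29 and 38, and Gm21814 25 and 26. All were below the lowest member values of 64 and 75 reads, but these genes were picked by fold. Other shared genes had more summit reads than some members. By summit reads among shared genes, Lars2 ranked 12th and Oasl1 14th in Ctrl, and Oasl1 ranked 5th and Adgrf2 6th in Lactate. Among the genes nearest to the members' median pair of log2 folds over 2 libraries were Cacna2d2, at a distance of 0.57 log2 units, Ms4a5, at 0.79, and Tmem17, at 0.96.

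Genes of the same families and pathways were also examined. Of 25 genes of Wnt secretion and Wnt ligands, 3 had a gene-end peak in Ctrl, 8 in Lactate and 5 in Lactate alone. Of all genes, 32%, 44.8% and 16.2% did. The retromer gene Vps35, which returns Wls from endosomes, was the highest by fold, with 32 control reads (21.9 to 45.2) and 34 lactate reads (23.5 to 47.5). The same peak was also the best one of the neighbouring gene Orc6, so it cannot be credited to Vps35 alone. Porcn, whose product attaches the lipid to Wnts, was called in Lactate alone with 17 reads (9.90 to 27.2), in a peak also within 1 kb of an end of Ebp. Of 21 oligoadenylate synthetase and interferon response genes, 5 were called in Ctrl, 11 in Lactate and 6 in Lactate alone. The shares of all genes were again 32%, 44.8% and 16.2%. Stat2, a transcription factor of the interferon response, led with 24 and 27 reads in a peak that it shared with its neighbour Apof, while Oasl2, the related gene beside Oasl1, was called in neither list.

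Of 33 other RhoGAP genes, 13 were called in Ctrl and 15 in Lactate, with 4 in Lactate alone and 2 in the control alone, patterns that 16.2% and 3.34% of all genes showed. Arhgap21 was the highest by fold, at 20 and 30 reads. Of 25 other adhesion receptor genes, 4 were called in each library, lower shares than the 32% and 44.8% of all genes. Adgrf3 was the highest by fold, at 18 and 15 reads. Of 16 other mitochondrial aminoacyl-tRNA synthetase genes, 8 were called in Ctrl, 13 in Lactate and 5 in Lactate alone. These are higher shares than the 32%, 44.8% and 16.2% of all genes, and no test was made. The best peak of Rars2 matched that of Orc3 in fold and width in both libraries. Not every call here can thus be credited to the synthetase gene alone. Nars2, the asparagine enzyme, led with 20 reads (12.2 to 30.9) and 31 reads (21.1 to 44.0). Over these 5 lists 27.5% of 120 genes were called in Ctrl and 42.5% in Lactate, beside 32% and 44.8% of all genes. The highest fold in any list was 6.71, at Vps35 in the control. That it lies below every value of the 5 members follows largely from their choice by fold and is no finding.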

How the data were processed

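BWA, deepTools, MACS2 and build mm10 are named, per the submitters' processing notes. Their versions, settings and any control library were not given in the sources used here. One peak list per library was deposited by the authors. Per the column order of the deposited lists, each peak has a fold enrichment ratio of summit pileup over local background, a −log10 p and −log10 q of its summit, a score of 10 times the −log10 q, and a summit offset. The lowest −log10 q was 1.30 in both lists. Samples were grouped by the labelled treatment, with 1 library each.

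Nuclear peaks were used, without the 6 mitochondrial lines per list. Pileup and lambda were solved from fold and −log10 p, which matched within 0.001 for all 46592 control and 39768 lactate peaks. On 3000 simulated peaks the true pileup was returned for 100.0%. A gene's best peak is the one of highest fold overlapping, by at least 1 bp, a window of 1 kb on either side of either annotated end (RefSeq, GRCm38.p6). Pileups have exact Poisson 95% intervals and ratios exact conditional binomial ones, both for counting error only, and reads without molecular identifiers are not independent molecules. Read totals are not in the lists, and depth was compared through the genome-wide background of 2.96 and 3.06 reads. The text names the 5 genes, their nearest genes, the next 5 by the lower fold, the 5 nearest in log2 fold, the 5 highest peaks of each list and at most 4 genes of each gene list, except for items that are not reported here. Members, lists and alternatives were chosen with earlier results of these data known. All but 2 of 122 list genes matched a protein-coding gene. Other windows, rankings, thresholds, distances and ratios were tried. Python 3.11.15, numpy 2.4.6, pandas 2.3.3 and scipy 1.17.1 were used.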

Additional observations from a re-analysis of the deposited data

How the results depend on the processing

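All 5 genes were among the first 5 of both lists by fold, by −log10 p, and with peaks cut at a −log10 q of 5 or 10. With a window of 500 bp 4 were, since the Wls peak falls outside it. The number was 2 with a window of 3 kb, 2 when ranked by summit pileup and 2 when all annotated genes were ranked. Wls ranked first in both libraries in each of these 3. All 5 lactate to control ratios stayed below the median of shared genes when scaled to the background or taken after subtraction of lambda, and 3 did on the deposited fold, the cause of which was not tested. Neighbouring peaks summed over the 5 genes, 6 in Ctrl and 5 in Lactate, became 0 and 0 within 20 kb, 12 and 19 within 100 kb, and 2 and 2 at a −log10 q of at least 5. Overlap and median width did not change. Genes called over the 5 lists, 33 and 51, fell to 13 and 28 at a −log10 q of at least 5. No paired analysis was possible because each group holds 1 library. The lowest callable pileup of 11 reads limits what a missing peak shows.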

Other observations

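The highest peaks of both lists lay away from the ends of protein-coding genes. In the control the first was inside Gm525 on chromosome 11 at 89081643 to 89082133, with 300 summit reads and a fold of 31.0, and it ranked 5th in the lactate list with 236 reads. A pair on chromosome X, at 170758097 to 170758637 and 170880851 to 170881413 in the control list, had 162 and 153 reads and folds of 27.2 and 27.9, touching no annotated gene. A peak on chromosome 12 at 120028563 to 120029085 had 202 reads, and its lactate partner had 211. The control's 5th was on chromosome 17 at 13305860 to 13306356 in the long noncoding RNA gene Gm36684, with 229 reads. The first lactate peak, on chromosome 12 at 3109771 to 3110181, had 201 reads and a fold of 29.7. Chl1, a neural cell adhesion gene, held another of the 5 highest lactate peaks, with 229 reads at chromosome 6, 103648987 to 103649409. Each of these overlapped a peak of the other library.

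The mitochondrial genome held 6 peaks in each list with up to 187 summit reads in Ctrl and 186 in Lactate. The highest of these summits are above those of all 5 genes, while the folds there reached 2.43 and 2.58, where lambda was 65.9 reads or more.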
